A study of Rattus norvegicus with 6 samples.

Results

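The 10 genes Cd68, Adgre1, Cd163, Mrc1, Tyrobp, Gpnmb, Spp1, Lgals3, Aif1 and Csf1r, which are widely used to mark macrophages, were read by gene name from a table of 30957 genes measured in the sciatic nerve of Sprague-Dawley rats. Each name matched 1 gene, and all 10 genes passed the filter on low counts. The rats were 1 month old. The control group (control) is described as a normal control by the sample labels, and as operated on without the clamp by the study's methods. In the other two groups the nerve was crushed with forceps and collected 4 days (D4) or 7 days (D7) later. From each group 2 rats were sequenced with 1 library each, named a and b. Total RNA of nerve tissue was sequenced after removal of ribosomal RNA, so the values describe all cells of the nerve together.

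Macrophages clear myelin and axon debris from a crushed nerve, and they come from cells that live in the nerve and from blood monocytes that enter it. The CSF1 receptor keeps cells of this lineage alive, surface adaptors such as TYROBP pass on signals from debris receptors, and lysosomal proteins break down what is taken up. Several of the 10 genes are not limited to macrophages: Schwann cells also make osteopontin (Spp1), and GPNMB is also a protein of pigment cells.

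Between 18727255 and 25350886 fragments were counted on mRNAs per library. Levels are given as TMM-scaled CPM, the fragments of a gene after each library is brought to one common total, where TMM is a factor that corrects for the makeup of a library. The 10 most abundant genes took 16.06% to 17.63% of the fragments in the control libraries and 8.55% to 9.411% in the injured ones. The labelled tissue was checked with Prx, a gene of myelinating Schwann cells, which was at 7334 and 5136 CPM in control a and b and between 35.67 and 1319 CPM in the injured libraries. The 10 marker genes together took 0.117% and 0.0952% of the mRNA fragments in control a and b, then 0.368% and 0.241% at D4 and 0.211% and 0.213% at D7. Spp1 supplied 70.6% and 68.4% of these fragments in control a and b, and without it the share was 0.0344% and 0.0301% in the controls and between 0.183% and 0.271% after injury.

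On D4, 9 of the 10 marker genes rose and none fell. Over all 15195 genes tested, 11.2% rose and 10.7% fell on that day. On D7, 8 of the 10 rose and 1, Spp1, fell, where 9.83% of all genes rose and 9.02% fell. A gene is said to rise or fall where edgeR's quasi-likelihood test gave a Benjamini-Hochberg adjusted p under 0.05 and the fold change was at least 2. The median log2 fold change of the 10 genes was 1.93 on D4 and 1.67 on D7, beside -0.04 and 0.01 over all genes tested. Both days were compared with the same 2 control libraries. Between D4 and D7 only Spp1 among the 10 genes met both criteria, where 2.18% of all genes changed in either direction. Cd163 had an adjusted p of 0.0447 by the same test, but its log2 change of -0.83 was under the 2-fold limit. In whole tissue, more cells of a type and more RNA per cell cannot be told apart.

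**Figure D1:**
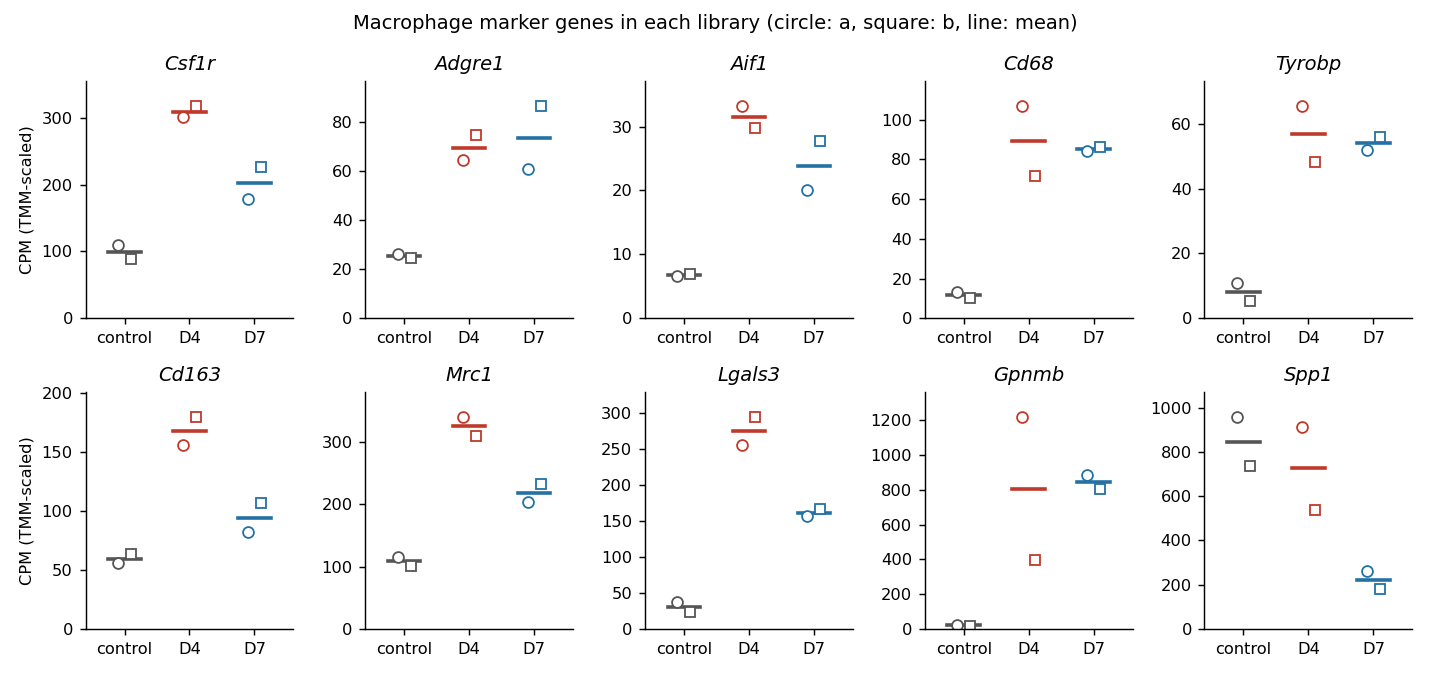
TMM-scaled CPM of each marker gene (y axis, each panel with its own scale from 0) in the control, D4 and D7 libraries, with circles for library a, squares for library b and a line at the mean of both. For 9 of the 10 genes, all but Spp1, the 4 injured libraries lie above both control libraries, as they do for 29.5% of all genes tested, while the D4 values of Spp1 overlap those of the control group and its D7 values lie below them.

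The 250 bases before the start of transcription were available for 7 of the 10 genes from RefSeq on build GRCr8, which is not the build of the expression table. Tyrobp, Lgals3 and Aif1 were not matched. Both strands were searched for 3 short motifs: GAGGAA, a core of the site bound by the myeloid factor PU.1, TGAGTCA, the site of AP-1 factors, and CACGTG, an E-box bound by MiT/TFE factors. GAGGAA was found in 5 of the 7 windows and in 23.3% of 33469 windows of all genes, TGAGTCA in 2 of the 7 and in 4.05%, and CACGTG in 0 of the 7 and in 5.59%. Windows of 4 genes are shown, each written in the direction of the gene with matches in capitals. Csf1r and Mrc1 are shown because they had the most similar course over the libraries, and Gpnmb and Spp1 because they had the least similar.

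Csf1r, chr18:56834129-56834378, plus strand: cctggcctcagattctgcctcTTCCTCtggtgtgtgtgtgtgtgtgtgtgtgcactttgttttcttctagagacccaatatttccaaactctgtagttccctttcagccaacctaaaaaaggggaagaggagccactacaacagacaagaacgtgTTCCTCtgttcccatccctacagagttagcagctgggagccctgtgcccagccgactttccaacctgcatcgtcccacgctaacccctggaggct

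Mrc1, chr17:82157475-82157724, plus strand: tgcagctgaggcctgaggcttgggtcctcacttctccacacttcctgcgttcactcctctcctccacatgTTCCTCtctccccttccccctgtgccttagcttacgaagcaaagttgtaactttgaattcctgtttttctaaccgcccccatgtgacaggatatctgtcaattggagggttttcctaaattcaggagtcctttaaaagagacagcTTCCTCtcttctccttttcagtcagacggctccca

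Gpnmb, chr4:79340878-79341127, plus strand: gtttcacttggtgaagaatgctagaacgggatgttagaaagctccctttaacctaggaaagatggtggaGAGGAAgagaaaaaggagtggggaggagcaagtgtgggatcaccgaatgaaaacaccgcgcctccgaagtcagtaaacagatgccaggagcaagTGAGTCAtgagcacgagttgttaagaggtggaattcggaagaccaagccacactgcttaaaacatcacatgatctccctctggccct

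Spp1, chr14:5619805-5620054, minus strand: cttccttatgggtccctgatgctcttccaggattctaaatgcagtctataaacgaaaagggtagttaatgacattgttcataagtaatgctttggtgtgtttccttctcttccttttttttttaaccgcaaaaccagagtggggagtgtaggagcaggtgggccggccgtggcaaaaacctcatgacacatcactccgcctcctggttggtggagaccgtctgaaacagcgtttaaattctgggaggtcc

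The capitals in the Csf1r window are 2 matches to GAGGAA on the other strand, which begin 229 and 95 bases before the start. Those in the Mrc1 window are also 2 matches to GAGGAA on the other strand, at 180 and 35 bases. The Gpnmb window holds GAGGAA at 181 bases and TGAGTCA at 87 bases. None of the 3 motifs was found in the Spp1 window or in that of Cd163. The windows not shown held GAGGAA at 27 bases and TGAGTCA at 205 and 80 bases (Cd68) and GAGGAA at 207 bases (Adgre1). A match to such short letters is a description of the window and not a bound site. Only these exact letters were searched, so a window without a match may still hold other forms of the sites.

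Csf1r, on chromosome 18 at 56414488-56458300 (Rnor_6.0), encodes the receptor for the growth factors CSF1 and IL-34. It was at 109.6 and 88.03 CPM in control a and b, at 301.5 and 316.8 CPM on D4 and at 177.8 and 226.1 CPM on D7. The 3 groups did not overlap, with D4 highest and control lowest. The log2 fold change was 1.65 on D4 (SE 0.16, adjusted p = 0.000677) and 1.03 on D7 (SE 0.16, adjusted p = 0.00464). From D4 to D7 it changed by -0.61 (95% interval -1.0 to -0.23, adjusted p = 0.0824), which did not pass the test. The D7 rise lay close to the 2-fold limit and was 0.88 without control b and 0.85 without D7 b, so it was not called in either case.

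The 4 other genes used as general markers of the lineage rose on both days. Adgre1, the F4/80 surface receptor (chromosome 9, 9431860-9585865), was at 26.32 and 24.60 CPM in the control libraries, 64.44 and 74.40 CPM on D4 and 60.90 and 86.19 CPM on D7. Its D4 libraries lay within the range of its D7 libraries. It rose by 1.45 on the log2 scale on D4 (SE 0.18, adjusted p = 0.0017) and 1.53 on D7 (SE 0.18, adjusted p = 0.00191). Aif1, the calcium-binding protein IBA1 (chromosome 20, 5161333-5166448), was at 6.644 and 6.994 CPM in the control libraries, 33.16 and 29.77 CPM on D4 and 20.05 and 27.71 CPM on D7. Both D4 libraries were above both D7 libraries. The log2 rises of Aif1 were 2.21 (SE 0.19, adjusted p = 0.000435) and 1.81 (SE 0.19, adjusted p = 0.00119).

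Cd68, a lysosomal membrane protein of phagocytes (chromosome 10, 56268720-56270640), was at 13.44 and 10.13 CPM in the control libraries, 106.7 and 71.74 CPM on D4 and 84.19 and 86.39 CPM on D7. The D7 libraries lay between the D4 libraries. Its log2 fold change was 2.92 on D4 (SE 0.23, adjusted p = 0.000361) and 2.85 on D7 (SE 0.23, adjusted p = 0.000637). Tyrobp, the adaptor DAP12 that carries the signal of several receptors (chromosome 1, 88875375-88879303), was at 10.76 and 5.306 CPM in the control libraries, 65.39 and 48.25 CPM on D4 and 52.07 and 55.96 CPM on D7. Here too the D7 values fell between those of D4, and the control libraries differed from each other 2.028-fold. Tyrobp rose by 2.81 on D4 (SE 0.33, adjusted p = 0.00129) and by 2.74 on D7 (SE 0.33, adjusted p = 0.00191). Its rises were 3.42 and 3.35 without control a and 2.40 and 2.32 without control b, and it was called in each case. Between D4 and D7 the log2 differences of Adgre1, Aif1, Cd68 and Tyrobp did not pass the test, with 95% intervals of -0.35 to 0.51, -0.82 to 0.03, -0.58 to 0.45 and -0.79 to 0.65.

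Both scavenger receptors rose on D4, with smaller fitted changes than Cd68 or Tyrobp, and only Mrc1 was called on D7. Mrc1, the mannose receptor CD206 (chromosome 17, 81352700-81433743), was at 115.6 and 100.5 CPM in the control libraries, 339.4 and 309.8 CPM on D4 and 203.5 and 231.5 CPM on D7. Its 3 groups did not overlap. It rose by 1.59 on D4 (SE 0.12, adjusted p = 0.000315) and 1.01 on D7 (SE 0.12, adjusted p = 0.00184), and the D7 value was under the 2-fold limit with DESeq2 (0.99), without control b (0.91) and without D7 b (0.91). Cd163, the receptor for haemoglobin bound to haptoglobin (chromosome 4, 156752082-156785467), was at 56.09 and 63.31 CPM in the control libraries, 156.1 and 179.8 CPM on D4 and 81.98 and 107.2 CPM on D7. It rose by 1.49 on D4 (SE 0.16, adjusted p = 0.000923). On D7 it was the only marker gene not called in either direction, since its adjusted p was 0.0203 but its log2 fold change of 0.66 (SE 0.16) was below the limit. The D7 to D4 differences were -0.58 for Mrc1 (95% interval -0.87 to -0.29, adjusted p = 0.0533) and -0.83 for Cd163 (95% interval -1.21 to -0.45, adjusted p = 0.0447), and neither met both criteria. Without D7 b the Cd163 difference was -1.04 (adjusted p = 0.0326) and met both.

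Lgals3, Gpnmb and Spp1 are used as markers of phagocytes in injured or diseased tissue, but here Spp1 did not rise on either day. Lgals3, the sugar-binding protein galectin-3 (chromosome 15, 24141651-24165537), was at 37.03 and 23.15 CPM in the control libraries, 255.5 and 294.6 CPM on D4 and 156.9 and 166.4 CPM on D7. No groups overlapped. It rose 9.13-fold on D4 (log2 3.19, SE 0.23, adjusted p = 0.000275) and 5.36-fold on D7 (log2 2.42, SE 0.23, adjusted p = 0.000884), and the difference of -0.77 between the days (95% interval -1.29 to -0.25, adjusted p = 0.0975) did not pass the test.

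Gpnmb, a membrane glycoprotein of lysosomes and melanosomes (chromosome 4, 78694447-78715683), had the largest fold change of the 10 genes on both days. It was at 23.49 and 18.45 CPM in control a and b, 1217 and 395.8 CPM in D4 a and b, and 882.3 and 804.3 CPM in D7 a and b. All injured libraries were far above the control libraries, and the D7 libraries lay between those of D4. The rise was 38.4-fold on D4 (log2 5.26, SE 0.57, adjusted p = 0.000985) and 40.2-fold on D7 (log2 5.33, SE 0.57, adjusted p = 0.00134). The D4 libraries differed from each other 3.075-fold, and only 10 of 9708 genes with at least 10 CPM (0.103%) were as far apart on that day, where the median gene differed 1.076-fold. The D4 log2 fold change was 4.24 without D4 a and 5.86 without D4 b, and the gene was called in both cases. The difference between D7 and D4 was 0.06 with a 95% interval of -1.09 to 1.22. Since the fit pools the spread of all groups, the SE on D7 takes in the gap between the D4 libraries. With D7 and control alone it was 0.19.

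Spp1, the secreted protein osteopontin (chromosome 14, 6673686-6679901), took another course. It was at 958.0 and 736.1 CPM in control a and b, 914.6 and 539.1 CPM on D4, and 264.1 and 179.0 CPM on D7. D4 a lay between the control libraries and D4 b below both, while the D7 libraries were below all others. The D4 log2 fold change was -0.22 (SE 0.30, adjusted p = 0.585), and its sign turned to 0.07 without TMM factors and to 0.11 without D4 b. On D7 Spp1 was 3.82-fold lower than in the control group (log2 -1.93, SE 0.31, adjusted p = 0.00563), and it was called with each library left out. Between D4 and D7 it fell 3.28-fold (log2 -1.71, SE 0.31, adjusted p = 0.0419). That last call was lost without D4 a (-1.28, adjusted p = 0.221), D4 b (-2.05, adjusted p = 0.114), D7 a (-2.03, adjusted p = 0.125) or D7 b (-1.46, adjusted p = 0.0953).

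**Figure D2:**
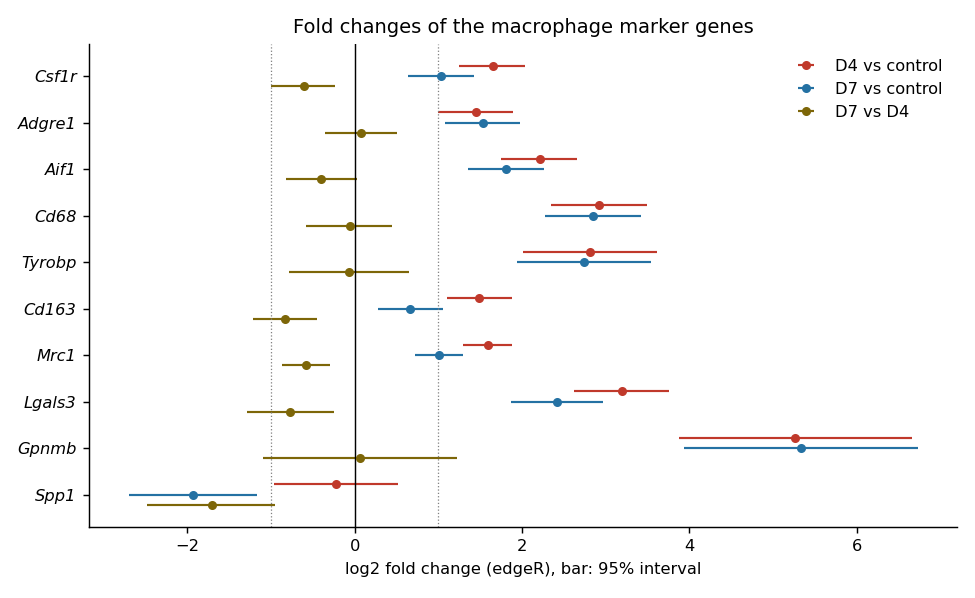
Fitted log2 fold change (x axis) of each marker gene (y axis) for the 3 comparisons between the groups (D4 and D7 with control, and D7 with D4), with 95% intervals as bars and dotted lines at 2-fold. Gpnmb lies farthest to the right at 5.26 and 5.33, and Spp1 is the one gene whose D7 interval lies below 0 against control.

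Levels were compared between genes with the deposited FPKM, which divide by gene length. Spp1 had the highest FPKM of the 10 genes in both control libraries, at 345.3 and 272.0, and the next was Csf1r in control a (20.61) and Mrc1 in control b (16.99). Gpnmb was eighth of the 10 in both control libraries at 8.790 and 7.077 FPKM. On D4 it reached 562.4 and 183.3 FPKM and on D7 407.1 and 376.4 FPKM, and it was first of the 10 in 3 of the 4 injured libraries and second to Spp1 in D4 b. Among all 15195 genes tested its FPKM ranked 6888 and 7891 in the controls, then 50 and 268 at D4 and 72 and 83 at D7. The rank of Spp1 went from 83 and 119 in the control libraries to 424 and 726 on D7. Aif1 was the lowest of the 10 genes in every library, between 2.255 and 13.90 FPKM.

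**Figure D3:**
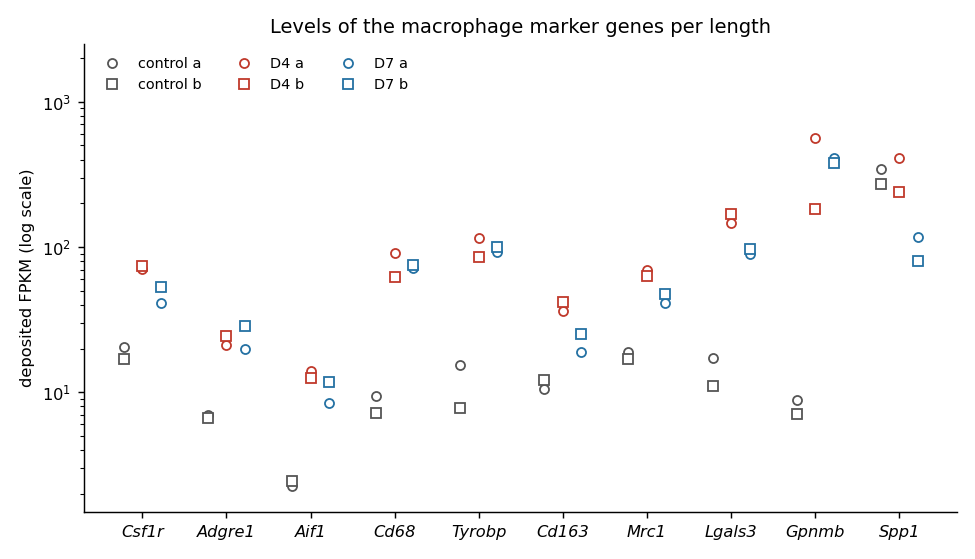
Deposited FPKM (y axis, log scale) of each marker gene (x axis) in the 6 libraries, with circles for library a and squares for library b. In the control libraries Spp1 stands more than 10-fold above the other genes, and in D4 a, D7 a and D7 b Gpnmb is the highest of the 10.

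The genes were also set against each other within each library, which leaves out the scaling between libraries. The counts of each gene were divided by the summed counts of Csf1r, Adgre1, Aif1, Cd68 and Tyrobp, without the gene itself. This ratio was 0.1409 and 0.1366 for Gpnmb in the controls, then 2.130 and 0.7316 at D4 and 2.234 and 1.667 at D7. For Spp1 it was 5.746 and 5.450 in the controls, then 1.601 and 0.9965 at D4 and 0.6687 and 0.3711 at D7, so on this scale both D4 libraries were below both control libraries. Against this sum Lgals3 rose from a mean of 0.1968 to 0.496 on D4 and 0.3712 on D7. Csf1r had the most counts of the summed genes in every library. Beside Cd68 and Tyrobp singly, the log2 rise of Lgals3 was larger on D4 (3.19 beside 2.92 and 2.81). On D7 it was smaller (2.42 beside 2.85 and 2.74). The ratios of the 2 scavenger receptors to the sum fell. Their group means in control, D4 and D7 were 0.7189, 0.5834 and 0.4976 for Mrc1 and 0.4026, 0.3028 and 0.2149 for Cd163. Beside Csf1r alone Mrc1 kept pace, with log2 fold changes of 1.59 and 1.01 on D4 and D7 beside 1.65 and 1.03. The ratio of Csf1r itself went from 1.894 to 1.266 and 0.8504, while that of Cd68 went from 0.08439 to 0.1913 and 0.2445. These ratios are given without a test.

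**Figure D4:**
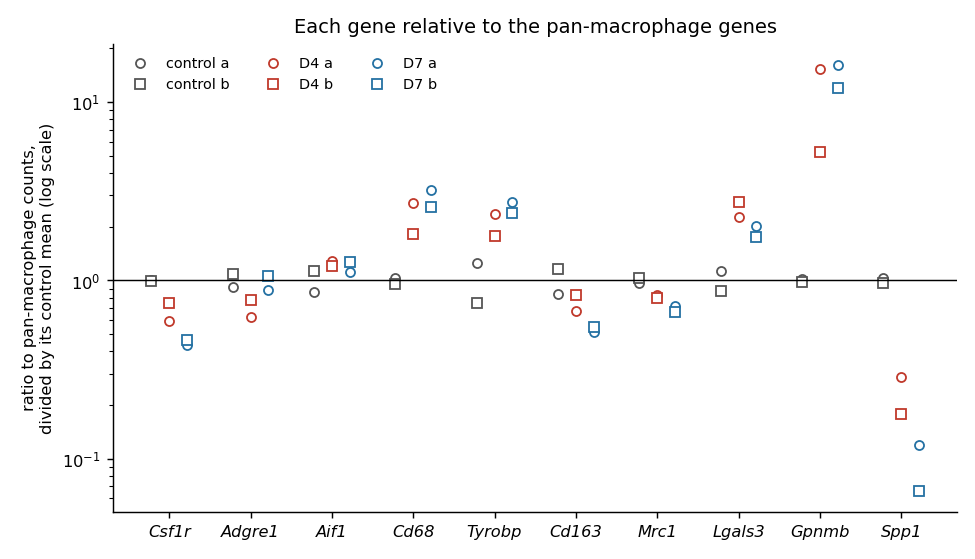
Ratio of each marker gene's counts to the summed counts of Csf1r, Adgre1, Aif1, Cd68 and Tyrobp (the gene itself left out), divided by the mean ratio of the control libraries (y axis, log scale), for each gene (x axis) in the 6 libraries. Gpnmb, Lgals3, Cd68, Tyrobp and Aif1 lie above 1 in all injured libraries, though D7 a of Aif1 lies below its control b. Csf1r, Cd163, Mrc1 and Spp1 lie below 1 in all injured libraries, and Adgre1 lies on both sides.

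The course over the 6 libraries, with each gene centred on its control mean, was compared by the root mean square distance of log2 CPM. Csf1r and Mrc1 were 0.091 apart, Cd68 and Tyrobp 0.181, Cd163 and Mrc1 0.265, and Gpnmb and Spp1 5.21. Among 13632 genes with at least 1 CPM in the control group, the 3 nearest to Csf1r were Pld4, Fgd3 and Mrc1 (0.076 to 0.091), and those nearest to Mrc1 were Adap2, Fgd3 and Glmp (0.055 to 0.088). Arl11, Itgb2 and Trem2 were nearest to Cd68, and Cd68, Napsa and Arl11 to Tyrobp. Il4r, Ippk and St3gal4 were nearest to Cd163, Cyp1b1, Ticam2 and Cass4 to Adgre1, and Tfec, Plaur and Il18 to Aif1. LOC680097, Sgol1 and Cdca8 were nearest to Lgals3. Gpnmb had no close neighbour among these genes: Clec7a, Sema3e and Hook1 were 0.538 to 0.622 away. The limit of 1 CPM left out genes that rose steeply from low control levels, such as Tyrp1 (mean 0.1376 CPM in control). Fam46b, Ssuh2 and Per1 were 0.332 to 0.357 from Spp1. The distances rest on 6 libraries, 2 of which set the centre, and are given without a test.

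Of 13 growth factors, receptors and transcription factors of the macrophage lineage, 11 were tested, and 7 rose and 1 fell on D4, while 5 rose on D7. Among all genes tested 11.2% rose and 10.7% fell on D4, and 9.83% rose and 9.02% fell on D7. Irf8, a factor needed for monocytes, rose by 2.69 and 2.57 on the log2 scale on D4 and D7, and Csf3r, the G-CSF receptor, by 2.58 and 2.36. Spi1, which encodes the PU.1 factor, was at 6.490 and 6.331 CPM in the control libraries and between 18.45 and 26.80 CPM in the injured ones, and it rose by 2.01 and 1.64. Of the 2 ligands of Csf1r, Il34 was at 40.90 and 25.50 CPM in the control libraries, 12.85 and 11.78 CPM on D4 and 37.66 and 28.30 CPM on D7. Il34 was thus low on D4 alone, with a log2 change of -1.43 on D4 (adjusted p = 0.00622), -0.01 on D7 (adjusted p = 0.976) and 1.42 from D4 to D7 (adjusted p = 0.0405). The last call was lost without D4 a or D4 b. Csf1 was 0.65 above control on D4 (adjusted p = 0.00387), under the 2-fold limit, and 0.17 on D7. Cebpa and Maf were also not called on D4. Csf2 and Csf3 had too few counts to be tested.

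The list of genes that work with or beside Tyrobp held 12 receptors, adaptors, kinases and enzymes. Of these, 8 rose and 1 fell on D4, and 7 rose and 1 fell on D7. The shares of all genes that rose were 11.2% and 9.83%. The 1 fall on each day lies near the share of all genes that fell (10.7% and 9.02%). Trem2, a lipid-sensing receptor that signals through TYROBP, was at 4.481 and 4.040 CPM in the control libraries and between 28.31 and 31.19 CPM in all injured ones, a log2 rise of 2.81 on D4 and 2.80 on D7. Trem1, its relative on monocytes and neutrophils, rose by 3.08 and 2.28. Siglech, with 0 counts in control a and in control b, was at least 8.22-fold higher on D4 and at least 4.05-fold higher on D7, against a floor of 3 counts per control library. Trem3 fell by 2.32 on D4 and by 2.10 on D7, from 2.833 and 3.015 CPM. Clec5a, Cd300e and Plcg2 were not called on either day, and Hcst was not called on D7.

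Of 14 other myeloid surface and granule genes 13 were tested, and 12 rose on D4 and 10 on D7, with none lower. For these and the resident genes below, the share of all genes that rose was 11.2% on D4 and 9.83% on D7. Cx3cr1, the fractalkine receptor, rose by 3.19 and 2.66, and Cd86, a costimulatory ligand, by 2.89 and 3.29. Ccr2, the monocyte chemokine receptor, was 1.3 and 1.13 above control and not called (adjusted p = 0.131 and 0.200), and Cd14 and Fcgr2b were called on D4 and not on D7. Of 12 genes of tissue-resident macrophages 11 were tested, and 7 rose on D4 and 3, Siglec1, Vsig4 and Folr2, on D7. Siglec1, a sialic acid receptor, was at 28.59 and 18.69 CPM in the control libraries, 300.6 and 210.7 CPM on D4 and 145.6 and 150.3 CPM on D7, with log2 rises of 3.43 and 2.64. Vsig4, a complement receptor, had 0 counts in the control libraries and 16, 16, 6 and 6 counts in the injured ones, which made it at least 3.72-fold and 1.73-fold higher. Timd4, F13a1, Gas6 and Igf1 were not called on either day. None of the 11 was called between D4 and D7, where 2.18% of all genes tested were called, so the lack of calls says little. All 11 were lower on D7 than on D4 by fitted value, with log2 differences from -1.24 to -0.26 and a median of -0.79.

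Of 15 genes of lipid-laden phagocytes, 8 rose and 1 fell on D4, and 7 rose and 1 fell on D7. Beside them, 11.2% of all genes rose and 10.7% fell on D4, and 9.83% rose and 9.02% fell on D7. The 1 fall on each day thus says little about the list. Lipa, the acid lipase of lysosomes, was at 22.04 and 28.28 CPM in the control libraries and at 216.7 and 225.0 CPM on D4, and it rose by 3.13 on D4 and 2.16 on D7. Apoe, a lipid carrier protein, rose by 2.15 and 2.96, and its D4 libraries were at 3329 and 1479 CPM. Atp6v0d2, a subunit of the lysosomal proton pump, had 0 control counts and was at least 3.04-fold and 4.53-fold higher. Cd9, a membrane protein that Schwann cells also make, fell by 2.53 and by 2.13, from 1072 and 884.0 CPM. Lpl, Fabp4 and Cd36, which fat cells also express, were lower by fitted value on both days (-2.79 to -1.66) and not called. The summed level of 5 fat cell markers differed widely among the libraries, from 1174 to 1376 CPM in control to 243.4 to 505.7 CPM on D4 and 50.05 to 581 CPM on D7, none of the 5 was called, and their part in these values was not tested.

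**Figure D5:**
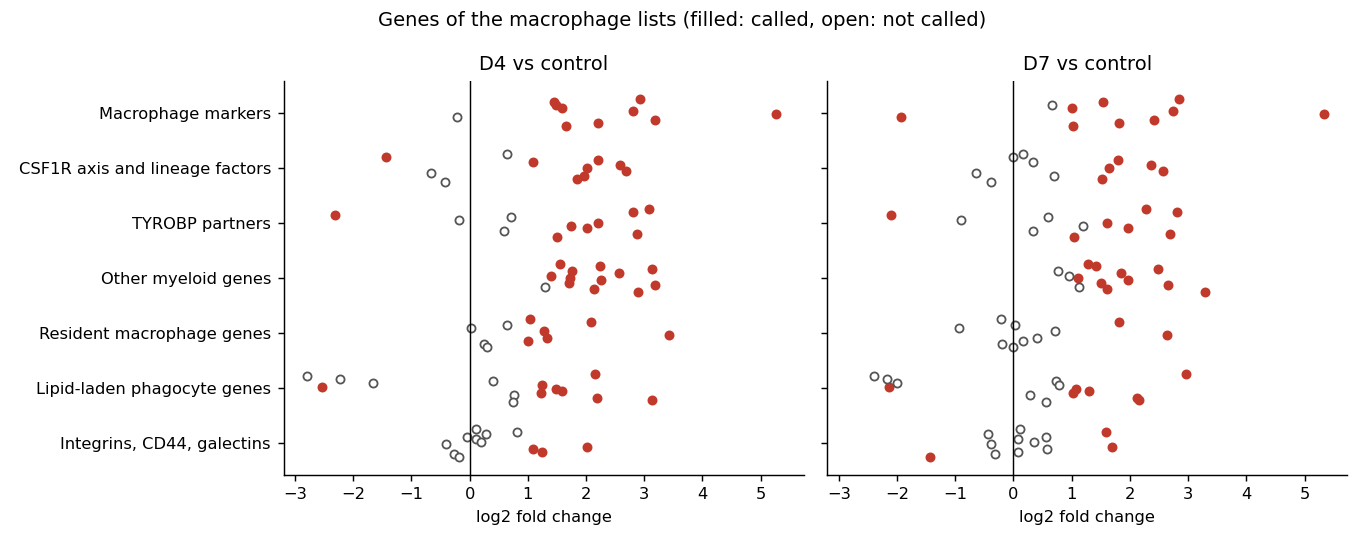
Fitted log2 fold change (x axis) of the tested genes of 7 lists (y axis) on D4 (left) and D7 (right) against control, with filled points for genes called and open points for genes not called. Genes with 3 counts or fewer in each control library are left out. Most filled points lie to the right of 1, and Gpnmb lies beyond 5 on both days.

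Osteopontin binds integrins and CD44, and galectin-3 has relatives that bind similar sugars. Of 12 genes of these families 3 rose on D4, where 11.2% of all genes tested rose. These were Cd44 by 2.02, Lgals3bp by 1.24 and Lgals1 by 1.09. On D7 Cd44 rose by 1.69 and the integrin subunit Itga4 by 1.59, and Lgals9 fell by 1.43. These 2 rises and 1 fall among 12 genes on D7 lie near the shares over all genes (9.83% and 9.02%), and so say little about the list. Cd44 was at 90.96 and 115.2 CPM in the control libraries and between 315.3 and 421.0 CPM in the injured ones. Of the 4 MiT/TFE transcription factors, which drive lysosomal genes and, in pigment cells, Gpnmb, Tfec rose by 2.29 and 1.83, and Mitf, Tfeb and Tfe3 were not called.

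Since Gpnmb is also made by pigment cells, 6 markers of these were read. Tyr and Mlana had 0 counts in every library, Sox10, which Schwann cells share, was not called, and Pmel rose by 1.19 on D4 and was -0.51 from control on D7 (not called). Tyrp1, with 3 and 2 control counts, was at least 576-fold higher on D4 and at least 1300-fold higher on D7. Its CPM were 101.7 and 91.54 on D4, where Gpnmb differed 3.075-fold between the same libraries, and 261.2 and 174.5 on D7. Dct rose by 2.62 and 4.85, to between 1.272 and 11.88 CPM. Without Sox10, which held most of their summed level, the pigment cell genes summed to 3.015 to 3.606 CPM in control, 101.4 to 109.4 CPM on D4 and 187.8 to 274.4 CPM on D7, and after injury Tyrp1 made up most of this sum. Their part in the Gpnmb values was not tested.

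Schwann cells also make Spp1, and their markers were read beside it. All 6 myelin genes read fell on D4 and 4 fell on D7, and 4 rose from D4 to D7. Ncmap was at -8.38 and -3.37 and Prx at -7.42 and -2.54 against control. Of all genes tested 10.7% fell on D4 and 9.02% on D7, and 2.18% changed in either direction from D4 to D7. Their summed level was 40390 and 26550 CPM in control a and b, 1087 and 1113 CPM on D4, and 5616 and 3492 CPM on D7, so it was lowest on D4, whereas Spp1 was lowest on D7. Of 8 repair Schwann cell genes 7 rose on each day and 2, Gdnf and Shh, fell from D4 to D7. The share of all genes that rose was 11.2% on D4 and 9.83% on D7. Ngfr rose by 6.46 and 5.62, and Gdnf, with 3 and 2 control counts, was at least 141-fold and 28.9-fold higher. All of these calls between D4 and D7 were lost without D4 a or D4 b. The part of Schwann cells in the Spp1 values was not tested.

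Other blood cells were read in the same way. Only 3 of 9 neutrophil markers had enough counts to be tested, Elane and Camp had 0 counts in every library, and Mpo made up nearly all of the summed level in control. Mpo was at 47.85 and 51.49 CPM in the controls, then at 8.004 and 5.430 CPM at D4 and 0.04695 and 14.60 CPM at D7, and was not called. The other 8 markers summed to 1.689 to 2.473 CPM in control and 1.145 to 20.05 CPM after injury. Cxcr2 fell by 1.60 on D4, and Mmp8 was at least 76.7-fold higher on D7, with 18.17 and 7.570 CPM. Of 7 T cell markers 6 were tested, and 3 rose and 1, Cd3g, fell (-2.59) on D4, while 5 rose on D7. Cd8a rose by 3.35 and 5.01, Cd3d was at least 6.02-fold higher on D7, and the summed T cell level was 2.678 to 3.859 CPM in control, 7.922 to 8.349 CPM on D4 and 26.32 to 26.48 CPM on D7. None of 5 B cell markers could be tested, with summed levels under 1 CPM. Of 5 dendritic cell markers 3 rose on D4 and 4 on D7, among them Xcr1, at least 4.52-fold and 8.43-fold higher, Flt3 (1.07 and 1.85), Clec9a (1.14 and 1.91) and, on D7, Ccr7 (2.88). The summed level of the 5 changed little, with 27.76 and 33.4 CPM in control, 27.71 and 24.53 CPM on D4 and 33.29 and 34.83 CPM on D7. Of 6 mast cell markers Kit rose on D4 (1.09) and Hdc (-2.03) and Ms4a2 (-1.66) fell on D7. Among 5 fibroblast markers 1, Col1a1, fell on D7 (-1.05), and among 4 endothelial markers tested Kdr (-1.28 and -1.52) and Tek (-1.09 and -1.08) fell on both days and Cdh5 (-1.12) on D7. None of the 4 skeletal muscle markers tested was called. Over all genes tested 11.2% rose and 10.7% fell on D4, and 9.83% rose and 9.02% fell on D7. Single calls in lists this short thus say little about the list. What these cells add to the marker genes was not tested.

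The table of long noncoding RNAs (lncRNAs), which was counted and scaled apart from the mRNAs, held 28 lncRNAs inside, across or within 10 kb of a marker gene, at 9 of the 10 loci. Of these, 20 could be tested, and 3 rose on D4 and the same 3 rose on D7, where 10.1% and 5.79% of all 14077 lncRNAs tested were called in either direction. NONRATT020886.2, inside Cd163 on chromosome 4 (156779797-156782295), had 198 and 111 counts in the controls, then 1133 and 1347 at D4 and 601 and 613 at D7. Its log2 fold change was 2.85 (SE 0.27, adjusted p = 0.00543) and 1.89 (SE 0.26, adjusted p = 0.0198), beside 1.49 and 0.66 for Cd163. The 2 others lie at Lgals3 on chromosome 15. NONRATT010334.2 (24163041-24165538), which overlaps the end of the gene's span, had 89 and 107, 560 and 707, and 550 and 457 counts in control, D4 and D7, with log2 rises of 2.52 and 2.25. NONRATT010333.2 (24160090-24160774) lies inside the gene and had 42 and 36, 203 and 186, and 183 and 141 counts, with rises of 2.16 and 1.95. Whether strand was used in counting is not stated, so fragments of these lncRNAs and of the genes they lie in may not be separable. On D7 all 3 calls were lost without D7 a, 1 was left without D7 b and 2 without D4 a or D4 b, and on D4 2 lncRNAs were called without D4 a and 6 without control a. MSTRG.27941.1, inside Adgre1, had 45 and 0 counts in the controls, then 103 and 148 at D4 and 0 in both D7 libraries, and it was not called.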

How the data were processed

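Sciatic nerve RNA of 6 rats, 2 each in the control, D4 and D7 groups, was analysed. Reads left after removal of ribosomal RNA were mapped by the authors to the rat genome (Rnor_6.0) with Hisat2 2.0.4, and they counted fragments with Stringtie 1.3.0. The deposited counts are whole numbers and were not normalized. The deposited FPKM values were made by the authors from these counts and gene length, and were used only to compare levels between genes. Whether strand was used is not stated.

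All mRNAs were tested in 1 fit of the 6 libraries with edgeR 4.0.16 in R 4.3.3 (filterByExpr, TMM factors, quasi-likelihood test, Benjamini-Hochberg adjustment over the 15195 genes tested). Calls needed an adjusted p under 0.05 and at least a 2-fold difference. The lncRNAs were fitted in the same way. The SE was taken from the size of the log2 fold change and the root of its F statistic. The spread behind the p-values was pooled over all 3 groups of 2 rats and shared in part across genes. It is thus not the spread of the 2 compared groups alone. Where both control libraries held 3 counts or fewer, the fold is a lower bound against 3 counts per library. The text names the 10 marker genes and, from each other list, up to 2 of the largest rises and falls among called genes, genes in counts of 5 or fewer, the 3 nearest genes and called lncRNAs. Apoe, Spi1 and MSTRG.27941.1 fell outside this rule and were added once values had been seen. The members and lists were chosen with earlier results of these data known. The limit of 1 CPM in the control group and the prior of 0.1 CPM for nearest genes, and the sums without Sox10, Mpo or Spp1, were chosen after seeing the data. Of the listed genes Pecam1 and Myh4 were not matched by name, and 1 listed gene is not reported here. On simulated data for D4 against control, 170 of 200 genes changed 4-fold were recovered among 14939 genes, with 12 false calls. The alternatives were the 2 groups alone, a block for the library letter, DESeq2 1.42.0, no TMM factors, 2 other count filters, 2 other thresholds and each library left out. Promoters, motifs and figures were handled in Python 3.11.15 with pandas 2.3.3, numpy 2.4.6 and matplotlib 3.10.9.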

Additional observations from a re-analysis of the deposited data

Results flagged for a closer look

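The course of Spp1 between the days of injury was tested directly and differed: its log2 fold change from D4 to D7 was -1.71 (SE 0.31, adjusted p = 0.0419 by edgeR's quasi-likelihood test), with both D7 libraries below both D4 libraries. The call was lost when any one D4 or D7 library was left out, with adjusted p from 0.0953 to 0.221.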

How the results depend on the processing

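The counts of marker genes called on D4 (9) were the same under every alternative run, and on D7 the same 9 calls (8 higher, 1 lower) were kept under all but DESeq2 (8), no fold threshold (10, with Cd163) and the fits without control b or D7 b (7 each, without Mrc1 and Csf1r). Leaving out 1 library gave 7 to 9 calls on D7 and 9 on D4. From D4 to D7 the count of 1 became 0 at an adjusted p under 0.01, 2 with no fold threshold, and 0 to 1 with 1 library left out, where the 1 call without D7 b was Cd163 and not Spp1. At an adjusted p under 0.01 the Spp1 value of -1.71 was not called. Signs turned for small differences: Spp1 on D4 was 0.07 without TMM factors and -0.65 to 0.11 with 1 library left out (positive without D4 b). From D4 to D7, the values with 1 library left out ran from -0.32 to 0.25 for Cd68 and -0.28 to 0.16 for Tyrobp (both positive without D4 a), from -0.19 to 0.3 for Adgre1 (-0.02 without D4 a, -0.19 without D7 b), and from -0.53 to 1.09 for Gpnmb (negative without D4 b and, at -0.02, without D7 a). The cause was not tested. Over all mRNAs, no fold threshold gave 6715 calls on D4 and 5705 on D7 in place of 3333 and 2863. From D4 to D7 the 331 calls became 521 with DESeq2, 8 at an adjusted p under 0.01, 710 with no fold threshold and 0 to 469 with 1 library left out (0 without D4 a or D4 b, 99 without D7 a). With 1 library left out 2540 to 3437 mRNAs were called on D4 and 2284 to 2859 on D7. For lncRNAs at the marker loci DESeq2 called 6 on D4 in place of 3, and leaving out 1 library gave 2 to 6 on D4 (6 without control a) and 0 to 3 on D7. Letters a and b are different rats. With the library letter as a replicate block 9, 9 and 1 marker genes were called on D4, on D7 and between them, and 3281, 2827 and 248 mRNAs. The deviations of same-lettered libraries correlated at 0.02 (control with D4), 0.23 (control with D7) and -0.17 (D4 with D7). With 2 libraries per group these values cannot show whether same-lettered libraries shared a batch. Without TMM factors the median gene moved by 0.25 on D4 and 0.31 on D7, and 69.29% and 70.43% of calls were higher, in place of 51.19% and 52.15%, while the counts of marker genes called did not move. TMM scaling of the per-length levels cannot change the order of genes within a library, so it was no check of that order.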
